A study of Mus musculus with 8 samples.

Results

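The genes described here encode the protein components of the 2 kinds of ribosome in mouse cells. They were chosen by gene symbol, with 1 probe set for each gene (the one with the highest mean over all 8 arrays, among probe sets that list a single gene). Symbols of the Rpl, Rps, Rplp and Rpsa families gave 49 cytosolic ribosomal protein genes, 26 of the large and 23 of the small subunit, after 6 Rps6k kinase genes were left out. Symbols of the Mrpl and Mrps families gave 73 mitochondrial ribosomal protein genes, 47 of the large and 26 of the small subunit. Together they make up 122 of the 18194 genes measured.

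Ribosomes translate mRNA into protein, and each consists of a small subunit that reads the mRNA and a large subunit that joins the amino acids. Cytosolic ribosomes make nearly all cell proteins and are assembled in the nucleolus around RNA from RNA polymerase I, while mitochondrial ribosomes translate the few mRNAs of the mitochondrial genome and have all of their proteins encoded in the nucleus. Most cytosolic ribosomal protein genes are active in every cell, but some have a diverged relative, a paralog such as Rpl39l, Rps27l or Rpl3l, whose use varies more between tissues.

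The series comes from work on parthenogenetic cells for engineered heart tissue and measured transcripts on 8 arrays of 1 colour. EB_PSC (2 arrays) are embryoid bodies, cell aggregates in which PSC differentiated over 15 days of culture. PSC (3 arrays) are C57BL/6 parthenogenetic stem cells, taken at day 6 from blastocysts of oocytes that superovulated mice had released and strontium chloride had activated, so they have no paternal genome. ESC (3 arrays) are embryonic stem cells of 1 line, R1, kept on feeder cells (mouse embryonic fibroblasts) and with murine leukemia inhibitory factor. The labels give no strain for ESC and no feeder use for PSC, so genome origin, cell line and culture cannot be told apart between PSC and ESC. The labels do not state whether replicate arrays stand for separate cultures. All p-values therefore refer to the spread among the arrays given, part or all of which may be technical.

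Values are the deposited log2 RMA values, in which a difference of 1 is a 2-fold difference in signal. RMA gives all arrays nearly the same distribution, so a shift shared by most genes cannot be seen in them. Array medians lay between 5.39 and 5.47. Below 5.44, the median of all values, a signal was treated as dim and its difference as a lower bound. Pluripotent cell markers were lower in EB_PSC than in PSC for 7 of 7 genes, while 6 of 7 cardiac, 4 of 5 erythroid and 5 of 6 visceral endoderm markers were higher. In mixtures of cell types such as embryoid bodies, fewer cells of a type and less RNA per cell cannot be told apart.

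Promoters are shown for the members whose differences stand out below, namely the 3 cytosolic genes that differed between PSC and ESC and the mitochondrial gene with the largest difference there. The windows are RefSeq's on GRCm38.p6 and run from 250 bases before to 50 bases after the annotated start. Rpl39l lies at chr16:10169978-10170277 on the plus strand, Rps27l at chr9:66945836-66946135 on the plus strand (1 of its 2 windows), Rps25 at chr9:44407464-44407763 on the plus strand and Mrpl37 at chr4:107066817-107067116 on the minus strand. Capitals mark matches to CCGGAAG, to the motif AAGATGG or to the E-box CACGTG, and the pyrimidine run at the start. Each window is written 5′ to 3′ on the strand of the gene. The other Rps27l window held none of the motifs searched and no such run, and is not shown.
Rpl39l: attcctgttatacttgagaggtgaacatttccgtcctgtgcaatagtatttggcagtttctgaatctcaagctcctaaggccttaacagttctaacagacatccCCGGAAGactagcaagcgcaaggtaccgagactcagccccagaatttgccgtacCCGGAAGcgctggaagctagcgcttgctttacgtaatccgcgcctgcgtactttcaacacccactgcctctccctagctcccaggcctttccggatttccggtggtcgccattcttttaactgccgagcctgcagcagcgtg
Rps27l: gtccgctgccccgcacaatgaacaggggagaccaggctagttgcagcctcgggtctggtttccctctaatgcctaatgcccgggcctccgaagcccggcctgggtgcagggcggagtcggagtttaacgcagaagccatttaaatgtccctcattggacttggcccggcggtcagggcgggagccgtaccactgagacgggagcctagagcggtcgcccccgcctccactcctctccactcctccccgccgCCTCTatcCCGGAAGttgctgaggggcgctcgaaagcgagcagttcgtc
Rps25: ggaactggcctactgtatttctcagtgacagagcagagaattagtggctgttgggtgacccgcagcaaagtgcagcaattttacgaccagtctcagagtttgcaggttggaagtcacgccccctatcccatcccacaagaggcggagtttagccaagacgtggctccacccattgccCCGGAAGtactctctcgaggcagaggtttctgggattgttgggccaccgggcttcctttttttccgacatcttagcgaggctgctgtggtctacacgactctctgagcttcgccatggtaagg
Mrpl37: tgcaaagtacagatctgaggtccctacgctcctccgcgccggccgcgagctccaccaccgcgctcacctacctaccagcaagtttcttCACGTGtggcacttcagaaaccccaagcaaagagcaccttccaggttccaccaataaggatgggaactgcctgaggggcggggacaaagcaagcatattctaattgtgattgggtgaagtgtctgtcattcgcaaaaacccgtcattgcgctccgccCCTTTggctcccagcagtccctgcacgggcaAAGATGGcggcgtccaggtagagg
CCGGAAG, the core bound by ETS factors such as GABP, occurs 146 and 92 bases before the start of Rpl39l, 73 bases before that of Rps25 and 9 bases after that of Rps27l. The Mrpl37 window holds AAGATGG, the core of YY1 sites, 26 bases after the start and CACGTG, the E-box of MYC and other factors, 162 bases before it.

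Windows were found for 43 of the 49 cytosolic genes (51 windows) and 64 of the 73 mitochondrial genes (70 windows), and were set against 21263 windows of 17492 protein-coding genes. Motifs were counted on both strands, and AAGATGG can also hold a start codon. CCGGAAG was in 41.2% of cytosolic and 31.4% of mitochondrial windows, against 11.6% of all windows. AAGATGG was in 15.7% and 17.1% of them, against 6.24% of all. GCATGCG, the core of sites of the nuclear respiratory factor NRF1, was in 7.84% of cytosolic windows and in 7 of the 70 mitochondrial windows, against 4.44% of all. CACGTG was in 9.80% and 8.57%, against 7.84% of all. TATAAA was in 11.8% and 7.14%, against 12.6% of all. A run that opens with C and goes on with at least 4 C or T bases, within 5 bases of the start, was in 41.2% of cytosolic, 24.3% of mitochondrial and 18.6% of all windows. Such a run is the start of the 5′ terminal oligopyrimidine mRNAs, whose translation follows nutrient signalling. A match is a description of the letters in the window and not a binding site.

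The cytosolic genes were among the brightest on the arrays. Of the 49, 34 had a mean of 13 or more, 36 were in the top 1% of probe sets, and their median mean was 13.76. The lowest means belonged to Rps16 (3.50, named here for that value) and Rpl3l, the heart and skeletal muscle relative of Rpl3, both in the dim range. The 73 mitochondrial genes had means between 7.71 and 12.34 with a median of 9.93, and none reached 13. These are levels of probe sets and do not order the genes by transcript number. Rps16, Rps27 (6.97), Rpl39 (7.02) and Rps6 (8.13) rest on probe sets far below the cytosolic median. Rpl12, Rpl14 and Rps25, described below, are also among the 10 cytosolic genes with a mean below 10. Whether the probe sets of these genes measure the main transcripts was not tested.

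The spread over arrays differed between the sets. From the lowest to the highest array, the median range was 0.41 for cytosolic and 0.80 for mitochondrial genes, against 0.95 for the 11719 genes above the dim limit. The narrowest ranges were those of Rps18 (0.12), Rps3a1 (0.14) and Rps7 (0.16), all small-subunit genes. Rpl7 and the X-linked Rps4x each had a range of 0.16 as well. The most variable cytosolic gene was Rps4l (1.98), a relative of Rps4x. Among mitochondrial genes the range went from 0.21 for Mrpl13 to 2.25 for Mrpl45. Bright probe sets thus covered narrow ranges, and the variable cytosolic genes lay mostly below 13. The highest value on any array was 14.86. Array signals can be compressed near the top of the scale, and the part of this in the narrow ranges and few calls of bright genes was not tested.

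**Figure D1:**
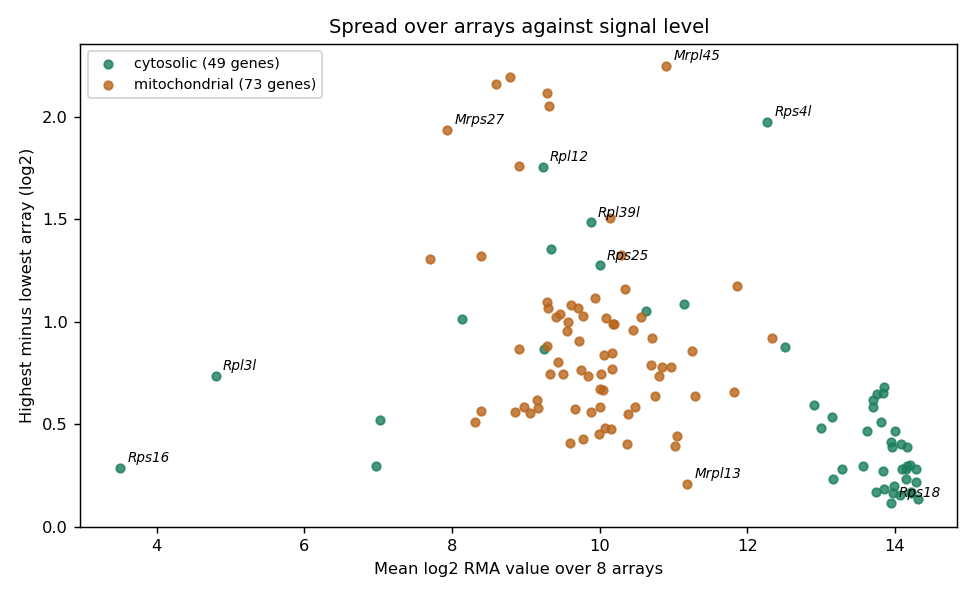
Mean log2 RMA value over the 8 arrays (x axis) against the highest minus the lowest array (y axis, log2) for each of the 49 cytosolic and 73 mitochondrial ribosomal protein genes. The bright cytosolic cluster near a mean of 14 has ranges mostly below 0.7, while Rps4l reaches 1.98 and Mrpl45 reaches 2.25.

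After each gene's mean over the 8 arrays was subtracted, the median of the mitochondrial genes was -0.18 and -0.21 on the EB_PSC arrays. It was -0.11, -0.04 and 0.01 on PSC 1, 2 and 3, and 0.13, 0.21 and 0.11 on the ESC arrays. The ESC arrays were all highest and the EB_PSC arrays all lowest, without overlap. The cytosolic genes gave 0.01 and 0.03 on EB_PSC arrays, -0.05, -0.02 and 0.03 on PSC arrays and 0.03, 0.03 and -0.01 on ESC arrays, and these overlap. EB_PSC had the highest group mean for 18 of the 73 mitochondrial genes, PSC for 8 and ESC for 47. For the 49 cytosolic genes EB_PSC had it for 21, PSC for 11 and ESC for 17. The same counts were not made over all genes. PSC 1 was the lowest of the 3 PSC arrays for 50 of 73 mitochondrial and 31 of 49 cytosolic genes.

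**Figure D2:**
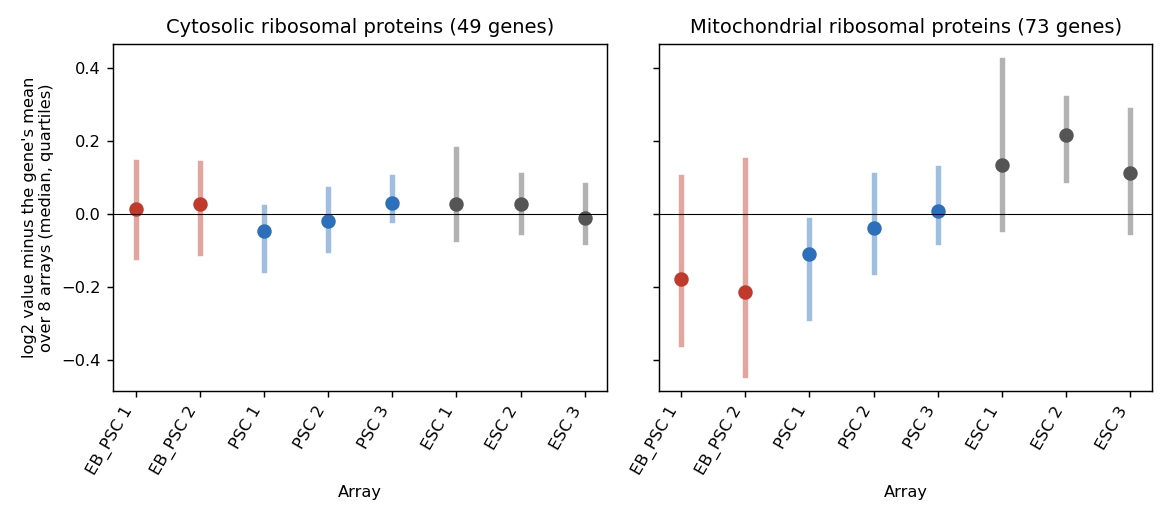
Median (point) and quartiles (bar) over genes of the log2 value minus the gene's mean over 8 arrays, by array, for the cytosolic and the mitochondrial set. The 3 ESC arrays lie above the others in the mitochondrial panel (0.11 to 0.21), and the cytosolic medians stay between -0.05 and 0.03.

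The first comparison asks how undifferentiated PSC differ from ESC. Of the cytosolic genes, 1 was higher in PSC (Rps25), 2 were lower (Rpl39l and Rps27l) and 46 did not pass the test, with a median difference of -0.04. Over all genes 20.8% were called (9.07% higher and 11.7% lower), so the cytosolic share of 6.12% lies below the background. Of the 34 cytosolic genes with a mean of 13 or more, 0 were called by limma, and 0 were higher and 3 lower at an unadjusted p below 0.05. Over all 49, 2 were higher without ESC 2 or ESC 3, and only Rpl39l was lower without PSC 1, PSC 2, ESC 1 or ESC 2. The counts depend on the choice of probe sets. With the mean of all probe sets of each gene they were 2 higher and 8 lower of 49. Over all 18194 genes that setting gave 1514 higher and 2057 lower. The cytosolic share was then near that of all genes, not below it.

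Rpl39l, a relative of the large-subunit gene Rpl39 known in mice from male germ cells and located on chromosome 16, had 9.12, 9.07 and 9.11 in PSC, against 10.52, 10.56 and 10.26 in ESC. All PSC arrays lay more than 1 log2 unit below the lowest ESC array. The difference of -1.35 ± 0.12 (SE) is a 2.54-fold lower signal in PSC (adjusted p = 8.31e-06). The probe set of Rpl39, on chromosome X, had 6.82, 7.06 and 7.04 in PSC and 6.90, 6.92 and 6.88 in ESC. These overlap, and the difference was 0.07 ± 0.11 (adjusted p = 0.722).

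Rps27l, a relative of Rps27 known as a p53 target, had 12.07, 12.12 and 12.26 in PSC, against 12.71, 12.67 and 12.37 in ESC, without overlap but with a gap of little more than 0.1. It was 1.35-fold lower in PSC (-0.44 ± 0.12, adjusted p = 0.0215). The call was lost without PSC 1 (0.0882), PSC 2 (0.0732), ESC 1 (0.0805) or ESC 2 (0.0504). Its 3 probe sets gave differences of -0.44, -0.44 and -0.42. Rps27 had 6.99, 7.08 and 7.03 in PSC against 6.86, 6.82 and 6.86 in ESC, a difference of 0.19 ± 0.10 that did not pass (adjusted p = 0.243). Rps25, a small-subunit gene known from yeast and human cells for its part in initiation at some viral RNAs, had 10.64, 10.54 and 10.15 in PSC, against 9.36, 9.84 and 9.50 in ESC. All PSC arrays were higher, by 1.84-fold on average (0.88 ± 0.15, adjusted p = 0.00123).

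The mitochondrial genes mostly leaned lower in PSC. Of 73, 20 were lower and 2 higher, with 51 not past the test, and the median difference was -0.20, against 0.01 over all genes and -0.03 over genes above the dim limit. The share lower, 27.4%, stands beside 11.7% over all genes and 17.1% over genes above the dim limit. Differences were below 0 for 61 of 73 genes (83.6%), against 49.0% of all genes and 53.6% of genes above the dim limit. The arrays did not overlap for 37 genes, or 50.7%, against 36.5% of all genes and 46.1% of genes above the dim limit. All 73 lie above that limit. The count of lower genes was 10 without PSC 1 and 16 to 22 without any other PSC or ESC array. The median was -0.09 after a repeated quantile normalization and -0.12 after cyclic loess.

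In the large mitochondrial subunit 16 of 47 genes (34.0%) were lower and 2 higher (median -0.21). In the small subunit 4 of 26 (15.4%) were lower, near the backgrounds of 11.7% and 17.1%, and 0 higher (median -0.20), with 25 of the 26 below 0 (limma; 1 higher and 10 lower at an unadjusted p below 0.05). Without PSC 1 the counts lower were 9 and 1, and without ESC 2 there was 1 higher in the small subunit. Mrpl37, a large-subunit gene, had 8.34, 8.54 and 8.55 in PSC, against 9.73, 9.03 and 9.23 in ESC. It was 1.80-fold lower in PSC, without overlap (-0.85 ± 0.16, adjusted p = 0.00235). Mrpl12, whose protein also binds the mitochondrial RNA polymerase, had 9.81, 9.995 and 10.22 in PSC and 10.96, 10.82 and 10.78 in ESC. It differed by -0.85 ± 0.13 (adjusted p = 0.00037), and every PSC array was at least 0.5 below every ESC array.

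Mrps5, a small-subunit gene, had 9.11, 9.32 and 9.36 in PSC and 10.29, 9.87 and 9.996 in ESC, again without overlap (-0.79 ± 0.13, adjusted p = 0.000947). All 5 of its probe sets were lower in PSC, by between -0.65 and -0.79. Mrpl18 was lower by 0.71 ± 0.14 (adjusted p = 0.00273). Mrpl11, of the stalk base where translation factors dock, had 10.53, 10.40 and 10.54 in PSC against 11.04, 11.03 and 11.03 in ESC. It was lower in PSC by 0.54 ± 0.11 (adjusted p = 0.00252). Some further calls of a lower signal rest on single arrays or probe sets. Mrpl54 (-0.72, adjusted p = 0.0149) lost its call without PSC 1 (0.0773), PSC 2 (0.0783) or ESC 1 (0.0626), and with the mean of its 2 probe sets (-0.34, 0.114). Mrpl38 (-0.68, adjusted p = 0.0131) lost its call without PSC 1 (0.0609) or ESC 1 (0.0525), and its other probe sets differed by 0.09 and 0.16. Mrpl4 (-0.59, adjusted p = 0.0149) lost its call without PSC 1 (0.0817) or ESC 1 (0.0644).

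The 2 higher mitochondrial genes, both of the large subunit, were Mrpl28 and Mrpl39. Mrpl28 had 10.83, 10.61 and 10.66 in PSC, against 10.10, 9.93 and 10.27 in ESC (0.60 ± 0.12, adjusted p = 0.00329) on an _x_at probe set, a type that may bind related transcripts. Its _at probe set differed by -0.09 (adjusted p = 0.681 in the fit without such probe sets), its remaining probe set by 0.39 and the mean of all 3 by 0.30 (adjusted p = 0.0421). Mrpl39 had 12.66, 12.64 and 12.47 in PSC and 11.74, 12.42 and 12.004 in ESC. Its highest ESC array came within 0.1 of its lowest PSC array (0.54 ± 0.15, adjusted p = 0.0244). That call was lost without PSC 1 (0.0931), PSC 2 (0.0884), ESC 1 (0.102) or ESC 3 (0.0806). It was also lost with the mean of the Mrpl39 probe sets (0.30, adjusted p = 0.0973), and the other probe set differed by 0.06.

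Cytosolic ribosome assembly genes also leaned lower in PSC. Of 68, 30 (44.1%) were lower and 1 higher (median -0.34), against 11.7% lower of all genes and 17.1% of genes above the dim limit. Without PSC 1 or PSC 2 the count lower was 15 or 17, and the 1 higher gene lost its call without PSC 1, PSC 2 or ESC 1, while without ESC 2 there were 2. Ddx21, a nucleolar RNA helicase, was lower by 0.99 ± 0.16 (adjusted p = 0.000809). Bop1, of the large-subunit assembly complex PeBoW, was lower by 0.88 ± 0.20 (0.00623) and Emg1, which methylates small-subunit rRNA, by 0.78 ± 0.12 (0.000562). Bms1, a GTPase of small-subunit assembly, was the higher one (0.38 ± 0.11, adjusted p = 0.0301).

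Of 18 genes of RNA polymerase I and rDNA transcription 5 (27.8%) were lower and 1 higher (median -0.16), and the count lower was 3 without PSC 1, ESC 1 or ESC 3 and 2 without PSC 2. The termination factor gene Ttf1 was higher (0.86 ± 0.11, adjusted p = 0.000153). Polr1b, which encodes the second largest polymerase subunit, was lower by 0.59 ± 0.18 (0.0316). Translation factor genes had 8 of 48 (16.7%) lower and 3 higher, near the backgrounds of 11.7% and 17.1% lower. The count lower was 2 without PSC 1, 3 without PSC 2, 4 without ESC 1 and 5 without ESC 3, and the count higher was 1 without PSC 2. Eif4e, for the cap-binding protein, was lower by 0.58 ± 0.16 (adjusted p = 0.0212), and Eif5 was higher by 0.76 ± 0.15 (0.00298). Of 34 genes of mitochondrial translation and ribosome assembly 9 (26.5%) were lower and 1 higher (median -0.19). Without PSC 2 or ESC 1 the count lower was 5 and without ESC 3 it was 4, and the higher count was 0 without PSC 1, PSC 3 or ESC 1 and 3 without ESC 2. Lrpprc, which stabilises mitochondrial mRNA, was lower by 0.72 ± 0.13 (adjusted p = 0.00137), and Mtif2, the mitochondrial initiation factor, by 0.63 ± 0.16 (0.0132).

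Among 17 genes for nuclear regulators of ribosomal and mitochondrial genes, 3 were lower and 3 higher, 17.6% in each direction, against 17.1% lower and 12.4% higher of genes above the dim limit. Myc, for a transcription factor that raises ribosome production, averaged 6.04 in PSC and 8.41 in ESC (-2.38 ± 0.19, adjusted p = 2.6e-06). Gabpb1, for a subunit of the ETS factor GABP, was lower (-0.60 ± 0.13, adjusted p = 0.00529), while Yy1 was higher (0.69 ± 0.13, 0.00275). On the same arrays 7 of 8 fibroblast markers were lower in PSC, with a summed signal of 589 to 688 in PSC and 1139 to 1588 in ESC. Of 7 pluripotent cell markers 2 were lower and 6 had differences below 0, with a summed signal of 19008 to 21246 in PSC and 27427 to 32342 in ESC. The 3′ minus 5′ signal of Gapdh, a sign of RNA quality, was -0.06 to 0.00 in PSC and 0.08 to 0.17 in ESC (exact permutation p = 0.1, the smallest that 20 splits allow). That of Actb was 1.04 to 1.54 in PSC and 0.69 to 1.13 in ESC, the other way and with overlap (exact permutation p = 0.2). The part of feeder cells, of pluripotent cells and of RNA quality in these differences was not tested.

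**Figure D3:**
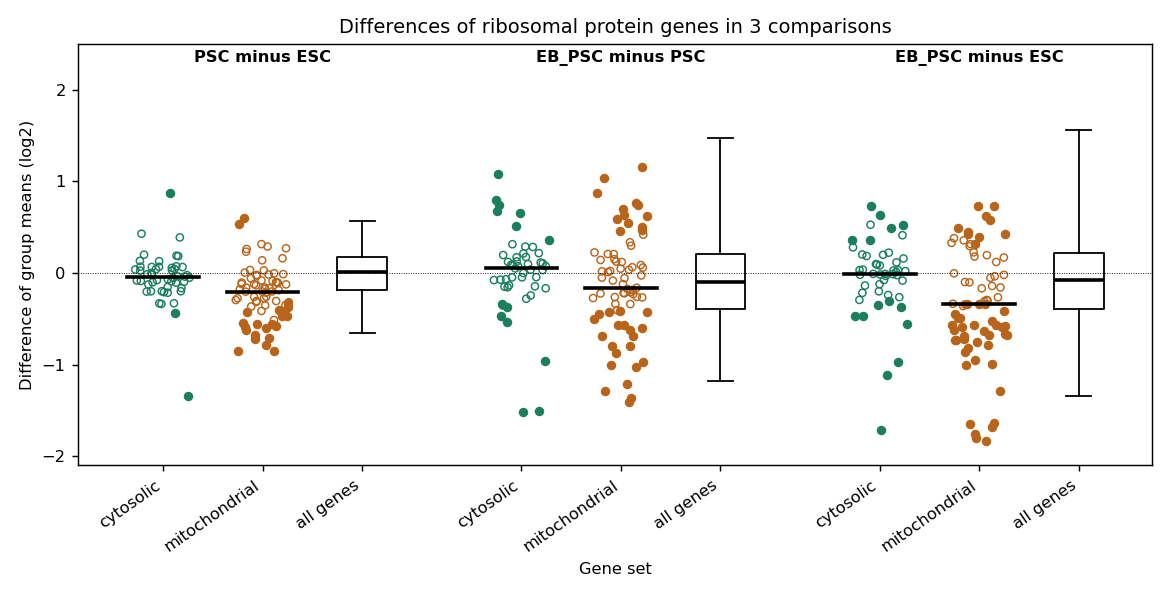
Difference of group means (log2) for each ribosomal protein gene in 3 comparisons, with filled points for genes called at an adjusted p below 0.05, a bar at the median, and a box for all 18194 genes (median and quartiles, whiskers at the 5th and 95th percentiles). Between PSC and ESC the cytosolic genes lie around 0 (median -0.04) and the mitochondrial genes mostly below it (median -0.20).

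The second comparison follows PSC into embryoid bodies. Over all genes 43.9% were called, 18.8% higher and 25.2% lower in EB_PSC. Of the 49 cytosolic genes, 7 were higher, 7 lower and 35 did not pass (median 0.05), a share of 28.6% that lies below the background. Their arrays did not overlap between the groups for 35 genes (71.4%), against 62.8% of all genes and 75.5% of genes above the dim limit. The calls were concentrated at low signal: 5 of the 15 genes with a mean below 13 were higher and 4 lower, against 2 and 3 of the 34 brighter ones. The lower count was 4 without either EB_PSC array. Where an EB_PSC array is left out, the remaining one is assumed to vary like the other groups.

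The largest cytosolic changes were falls of genes outside the bright cluster. Rps4l, on chromosome 6, had 11.17 and 10.94 in EB_PSC, against 12.29, 12.64 and 12.79 in PSC, and fell 2.86-fold (-1.52 ± 0.17, adjusted p = 6e-06). Its relative Rps4x, with 14.24 and 14.13 in EB_PSC and 14.29, 14.25 and 14.25 in PSC, differed by -0.08 ± 0.12 (adjusted p = 0.639). Rpl12, whose protein lies at the base of the large-subunit stalk, had 8.25 and 8.24 in EB_PSC, against 9.59, 9.67 and 9.998 in PSC (-1.51 ± 0.16, adjusted p = 5.74e-06). Both genes were more than 1 log2 unit lower on every EB_PSC array. Rpl7l1, a relative of Rpl7, had 9.92 and 9.88 in EB_PSC and 10.79, 10.86 and 10.92 in PSC (-0.96 ± 0.12, adjusted p = 1.81e-05). Its other 2 probe sets differed by only -0.15 and -0.19, and Rpl7 by -0.05 ± 0.12 (adjusted p = 0.782).

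Among bright genes Rpsa, which also serves as a laminin receptor, had 13.50 and 13.47 in EB_PSC, against 14.01, 14.08 and 13.95 in PSC, a 1.45-fold fall without overlap (adjusted p = 0.00812). The smaller falls of Rpl8 (-0.37), Rplp0 (-0.34), of the large-subunit stalk, and Rps25 (-0.47) each lost their call without single arrays. Without EB_PSC 2 the adjusted p was 0.132 for Rpl8 and 0.104 for Rplp0, and without EB_PSC 1 it was 0.156 for Rps25. Other such arrays were EB_PSC 1, PSC 2 and PSC 3 for Rpl8 (0.0834, 0.0786 and 0.0964), the same 3 for Rplp0 (0.141, 0.0747 and 0.113) and ESC 3 for Rplp0 (0.0562). For Rps25 they were EB_PSC 2 (0.100), PSC 1 (0.144), PSC 2 (0.120) and ESC 3 (0.0561).

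Rpl39l and Rps27l were higher in embryoid bodies than in PSC. Rpl39l had 10.33 and 10.04 in EB_PSC, against 9.12, 9.07 and 9.11 in PSC (1.08 ± 0.14, adjusted p = 2.42e-05), and Rps27l had 12.95 and 12.95 in EB_PSC, against 12.07, 12.12 and 12.26 in PSC (0.80 ± 0.14, adjusted p = 0.000289). PSC were the lowest group for both genes. The PSC arrays serve in both comparisons, so the 2 differences of a gene are not independent. The other rises were of Rpl37 (0.74 ± 0.20, adjusted p = 0.00733), Rps6, whose protein is the S6 kinase substrate (0.67 ± 0.14, 0.00166, on a probe set of mean 8.13, while its other one was in the dim range), and Rpl14 (0.66 ± 0.12, 0.000459). Rpl14 had 9.69 and 9.83 in EB_PSC, against 9.10, 9.09 and 9.11 in PSC, without overlap. Rpl41, for a very short basic protein, had 0.52 (adjusted p = 0.00485) on its _x_at probe set but -0.37 (0.158) without probe sets of that kind. Rps18, Rps19 (a gene mutated in human Diamond-Blackfan anaemia), Rpl38 (needed in mice for axial patterning) and Rpl22 differed from PSC by -0.07, 0.17, 0.05 and 0.12, and none of them passed the test.

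**Figure D4:**
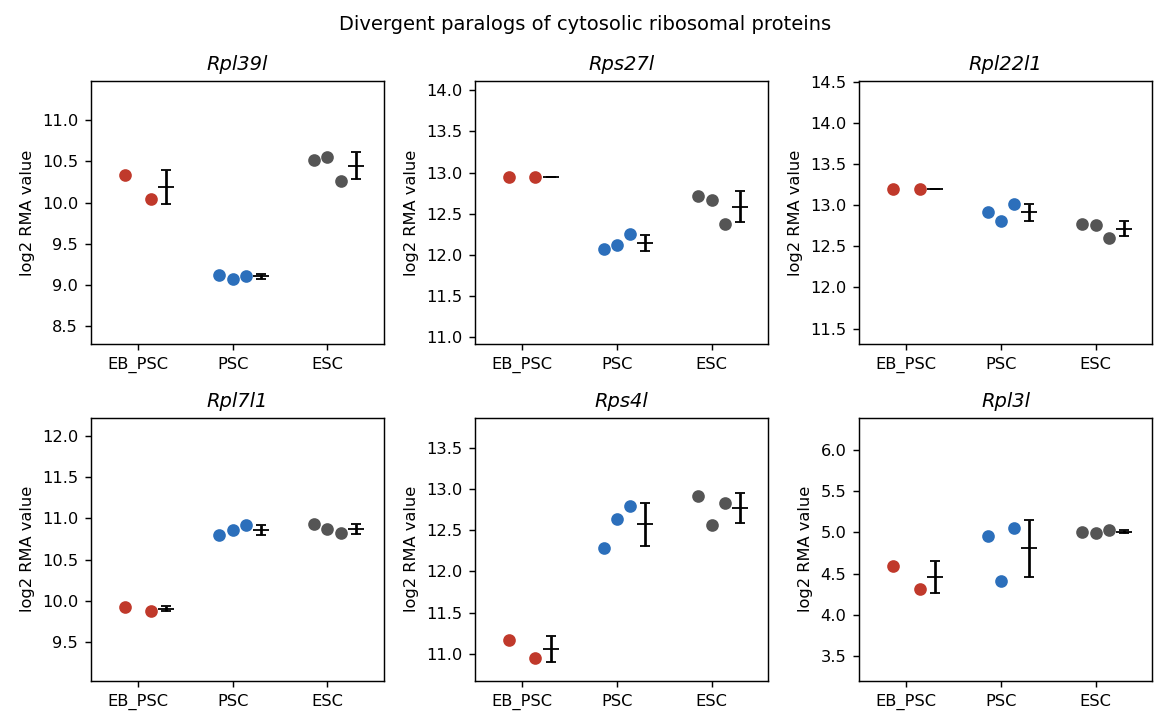
log2 RMA value on each array (points) with the group mean and SD (bars, n = 2 for EB_PSC, n = 3 for PSC and ESC) for 6 diverged cytosolic relatives; every y axis spans the same number of log2 units around the gene's own mean. PSC are lowest for Rpl39l and Rps27l, EB_PSC are lowest for Rpl7l1 and Rps4l, and Rpl3l lies in the dim range in all groups.

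The mitochondrial genes split in embryoid bodies. Of 73, 13 were higher, 21 lower and 39 did not pass (median -0.16, against -0.09 over all genes). The shares, 17.8% higher and 28.8% lower, are near the background of 18.8% and 25.2%, and below the 23.2% and 34.3% of genes above the dim limit. The arrays did not overlap for 55 of 73 genes (75.3%), against 62.8% of all genes and 75.5% of genes above the dim limit. With cyclic loess the median was 0.0016, and that of all genes also moved, to -0.0068. The large subunit had 8 of 47 genes higher and 12 lower, and the small subunit 5 of 26 higher and 9 lower. Without EB_PSC 2 or PSC 2 the small-subunit count lower was 4 or 5, and without EB_PSC 2 the large-subunit count higher was 5.

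The largest mitochondrial fall was that of Mrpl45, which anchors the mammalian mitochondrial ribosome to the inner membrane. It had 9.82 and 9.56 in EB_PSC, against 11.04, 11.14 and 11.11 in PSC, 2.65-fold lower without overlap (-1.41 ± 0.17, adjusted p = 1.29e-05). Mrps27, for a pentatricopeptide repeat protein of the small subunit, had 6.94 and 6.74 in EB_PSC and 7.98, 8.14 and 8.26 in PSC (-1.29 ± 0.17, adjusted p = 2.94e-05). Mrpl4 had 8.18 and 8.12 in EB_PSC and 9.15, 9.55 and 9.40 in PSC (-1.21 ± 0.17, adjusted p = 5.55e-05). In each of these genes both EB_PSC arrays lay near 1 log2 unit or more below the lowest PSC array. Mrpl28 fell by 1.36 ± 0.14 (adjusted p = 2.55e-06), and its other probe sets by 0.92 and 0.77. Mrpl15 fell by 1.03 on its brightest probe set and by 0.40 over the mean of its 8. Mrpl38 fell by 1.00, but its call was lost without _s_at probe sets (-0.19, adjusted p = 0.348). Mrps12, related to the bacterial decoding protein S12, fell by 0.62 ± 0.15 (0.0042).

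Rises were fewer than falls, with 13 genes (17.8%) higher and 21 (28.8%) lower, as they were over all genes (18.8% and 25.2%). Mrpl20, of the large subunit, had 10.94 and 10.93 in EB_PSC, against 9.61, 9.77 and 9.96 in PSC, 2.23-fold higher (1.16 ± 0.14, adjusted p = 1.81e-05). Mrps6, of the small subunit, had 9.94 and 9.96 in EB_PSC and 8.996, 8.86 and 8.89 in PSC (1.03 ± 0.13, adjusted p = 2.03e-05), and its other probe set gave 1.05. The EB_PSC arrays of both genes were above all PSC and ESC arrays. Mrpl27 was higher by 0.77 ± 0.14 (adjusted p = 0.000446), Mrps21 by 0.74 ± 0.15 (0.00124), Mrps28 by 0.70 ± 0.15 (0.00175) and Mrpl3, a gene mutated in a human cardiomyopathy, by 0.63 ± 0.12 (0.000637). Mrpl50 was higher by 0.87 ± 0.19 (0.00216) on its brighter probe set, and by 0.03 on the other.

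**Figure D5:**
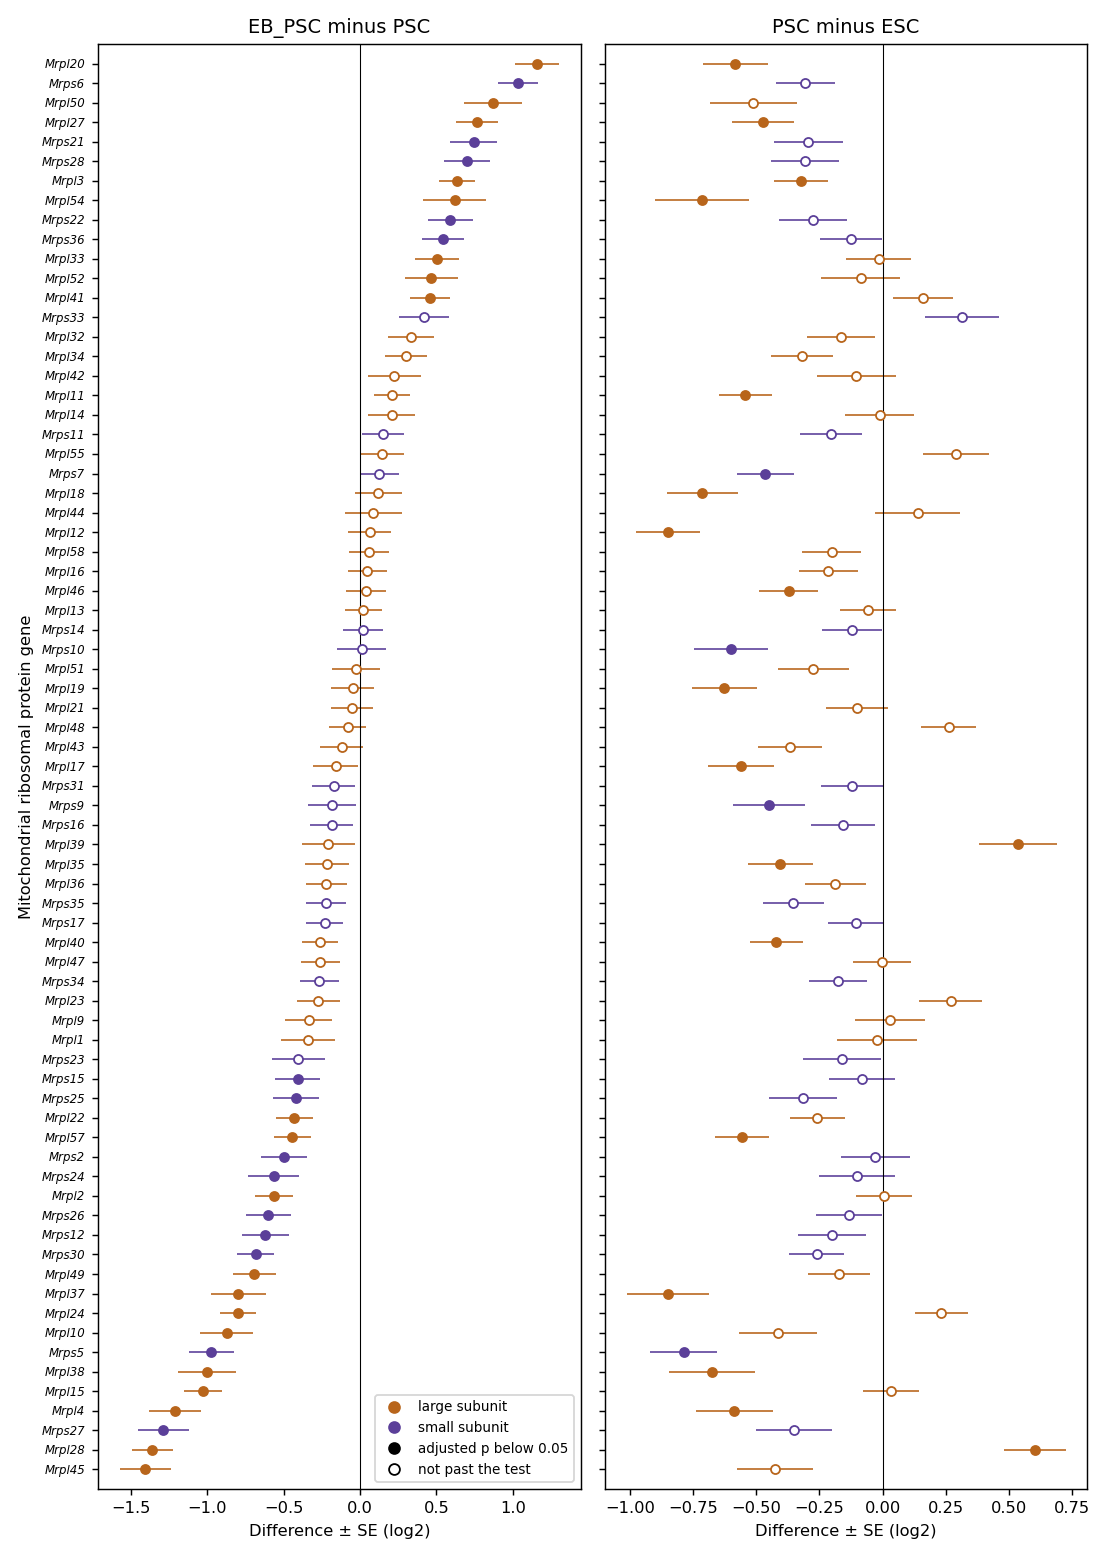
Difference ± SE (log2, n = 2 for EB_PSC, n = 3 for PSC and ESC) of the 73 mitochondrial ribosomal protein genes, EB_PSC minus PSC on the left and PSC minus ESC on the right, in the order of the left panel and on separate x scales. On the left the genes run from Mrpl20 (1.16) to Mrpl45 (-1.41) on both sides of 0. On the right 61 of 73 (83.6%) lie below 0, against 53.6% of genes above the dim limit. The PSC arrays serve in both panels.

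The genes around the ribosome leaned lower in embryoid bodies. Of 68 cytosolic assembly genes 41 were lower and 1 higher (median -0.50), against backgrounds of 25.2% and 18.8% (34.3% and 23.2% above the dim limit). Rrp1b, for a nucleolar protein of rRNA processing, fell by 1.93 ± 0.19 (adjusted p = 2.22e-06), Tcof1, for the rDNA factor treacle, fell by 1.75 ± 0.15 (5.35e-07) and Bop1 fell by 1.35 ± 0.22 (0.000183). The 1 higher gene, Emg1 (0.46 ± 0.14, adjusted p = 0.0131), lost its call without EB_PSC 1 or PSC 1. Of 18 genes of RNA polymerase I and rDNA transcription 11 were lower and 0 higher (limma, and also 0 higher at an unadjusted p below 0.05; median -0.45). Polr1a, for the largest subunit of the enzyme, averaged 7.46 in EB_PSC and 8.71 in PSC (-1.25 ± 0.17, adjusted p = 4.56e-05).

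Of 48 translation factor genes 23 were lower and 3 higher (median -0.29), and 1 was higher without EB_PSC 1 or PSC 1. Eif3d, Eif3b and Eif3c, of the scaffold factor eIF3, fell by 1.35, 1.25 and 1.17, and Eif5a, for an elongation factor, fell by 1.13 (adjusted p between 2.1e-05 and 3.19e-05). Another eIF3 subunit gene, Eif3m, was higher (0.47 ± 0.14, adjusted p = 0.015). Of 34 genes of mitochondrial translation and ribosome assembly 19 (55.9%) were lower and 4 (11.8%) higher (median -0.45). For both lists the background was 34.3% lower and 23.2% higher, over genes above the dim limit. Polrmt, the mitochondrial RNA polymerase, fell by 1.24 ± 0.16 (adjusted p = 2.88e-05), Tsfm, for an elongation factor, fell by 1.19 ± 0.15 (1.74e-05), and Slirp, a partner of Lrpprc, was higher by 0.62 ± 0.15 (0.00396).

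Of the 17 regulators 8 (47.1%) were lower and 2 (11.8%) higher, against 34.3% and 23.2% of genes above the dim limit. The count higher fell without EB_PSC 2. Mycn fell by 1.72 ± 0.20 (adjusted p = 9.02e-06), Pprc1, a coactivator of mitochondrial genes, fell by 1.62 ± 0.20 (1.78e-05) and Nrf1 fell by 1.13 ± 0.18 (0.000171), while Myc was higher by 1.72 ± 0.21 (1.79e-05). Proliferation markers moved on the same arrays, with 4 of 5 lower and summed signals of 20436 to 21714 in EB_PSC and 30204 to 31532 in PSC. Their part in these differences was not tested.

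A further 7 mitochondrial ribosomal proteins have gene symbols outside the Mrpl and Mrps number pattern and are given beside the set. Of these 7, 2 (28.6%) were higher and 3 (42.9%) lower in EB_PSC than in PSC. Over genes above the dim limit the shares were 23.2% and 34.3%. Dap3, of the small subunit, fell by 1.17 ± 0.13 (adjusted p = 8.79e-06), and Mrps18c was higher by 0.92 ± 0.18 (0.000768). Between PSC and ESC 0 were higher and 2 (28.6%) lower by limma, against 12.4% and 17.1% of genes above the dim limit. At an unadjusted p below 0.05 there were 0 and 4. Without any single PSC array or ESC 1 the count lower by limma was 1. The 2 lower genes were Ptcd3 (-0.63 ± 0.11, adjusted p = 0.00147) and Chchd1 (-0.39 ± 0.13, 0.0408).

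Embryoid bodies were also set against ESC, with arrays that serve in the other 2 comparisons. These groups differ in differentiation, genome origin, cell line and culture at once, and these cannot be told apart here. Over all genes 44.9% were called, 19.3% higher and 25.6% lower in EB_PSC. Of the cytosolic genes 6 were higher and 9 lower (median -0.01). Without EB_PSC 2 or ESC 3 the counts were 3 and 3 or 3 and 4, and without EB_PSC 1 they were 4 and 5. Of the mitochondrial genes 10 were higher and 37 lower (median -0.34), 50.7% lower, against 25.6% of all genes and 36.4% of genes above the dim limit. Their count higher was 5 without EB_PSC 1 or ESC 3, 4 without EB_PSC 2 and 6 without ESC 1. The arrays of 29 cytosolic and 57 mitochondrial genes did not overlap, shares of 59.2% and 78.1%, against 61.1% of all genes and 73.4% of genes above the dim limit. The mitochondrial median was -0.24 after a repeated quantile normalization and -0.09 after cyclic loess, which gave 18 higher and 21 lower. Over all genes the cyclic loess median was -0.0069, against -0.073 in the main fit. The 3′ minus 5′ signal of Gapdh was -0.09 to -0.06 in EB_PSC and 0.08 to 0.17 in ESC (exact permutation p = 0.1, the smallest that 10 splits allow). That of Actb was 1.09 to 1.17 in EB_PSC and 0.69 to 1.13 in ESC, with overlap (exact permutation p = 0.4). The part of RNA quality in these differences was not tested.

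Several mitochondrial genes had group means in the order EB_PSC lowest, PSC between and ESC highest. Mrps5 had 8.34 and 8.24 in EB_PSC and 10.29, 9.87 and 9.996 in ESC. It was 3.39-fold lower in EB_PSC (-1.76 ± 0.15, adjusted p = 4.03e-07), with no overlap of any of the 3 groups. Mrpl37 had 7.79 and 7.57 in EB_PSC against 9.73, 9.03 and 9.23 in ESC (-1.65 ± 0.18, adjusted p = 5.54e-06), and its groups were also apart. Mrpl4 was lower in EB_PSC than in ESC by 1.80 ± 0.17 and Mrpl45 by 1.83 ± 0.17 (adjusted p = 1.29e-06 and 9.2e-07). Between PSC and ESC, Mrpl45 did not pass the test (-0.43, limma adjusted p = 0.0616). The Mrpl4 call there was lost without PSC 1 or ESC 1. Mrpl12 took another course. It had 10.10 and 10.04 in EB_PSC, which differed from PSC by 0.06 ± 0.14 (adjusted p = 0.757) and from ESC by -0.79 ± 0.14 (0.000377). Mrps33, Mrps6 and Mrpl41 were higher in EB_PSC than in ESC by 0.73, 0.73 and 0.62 (adjusted p = 0.00206, 0.000359 and 0.00146).

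The lists around the ribosome gave 54 of 68 assembly genes lower in EB_PSC than in ESC (median -0.79) and 16 of 18 genes of RNA polymerase I and rDNA transcription (median -0.63), or 10 of 18 without EB_PSC 2. Tcof1, on the first list, averaged 7.24 in EB_PSC and 9.73 in ESC. Over genes above the dim limit 36.4% were lower and 23.4% higher, the background for every list of this paragraph. Of the genes of mitochondrial translation and ribosome assembly 20 were lower and 2 higher, and of the translation factor genes 25 were lower and 4 higher, or 2 higher without EB_PSC 1.

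Among cytosolic genes Rpl14, Rps6 and Rpl22l1 were higher in EB_PSC than in ESC, by 0.73, 0.64 and 0.49 (adjusted p = 0.000179, 0.00227 and 0.00516). Rpl22l1, the relative of Rpl22, had 13.20 and 13.20 in EB_PSC, against 12.77, 12.76 and 12.61 in ESC, without overlap. Rpl39l differed from ESC by -0.26 ± 0.14 (adjusted p = 0.148) and was 1.20-fold lower, a difference that did not pass. Rps4l was 3.28-fold lower than in ESC (-1.72 ± 0.17, adjusted p = 1.62e-06) and Rpl12 2.17-fold lower (-1.12 ± 0.16, 7.22e-05). Rpl3l, with 4.59 and 4.32 in EB_PSC and 5.00, 5.00 and 5.03 in ESC, was below the dim limit on all of these arrays, so no fold is given. Its call (adjusted p = 0.019) was lost without EB_PSC 2 (0.162) or ESC 3 (0.0514).

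Many cytosolic ribosomal protein genes share probe sets with related genes and retrocopies, which limits these results. Besides the 105 probe sets of the 49 members, 110 list a cytosolic symbol together with others, and 28 symbols, Rpl3 and Rpl10 among them, occur only on such probe sets and are not members. Of those 110 probe sets 3 (2.73%) were higher and 6 (5.45%) lower in PSC than in ESC. In EB_PSC 11 (10%) were higher and 10 (9.09%) lower than in PSC, and 9 (8.18%) higher and 10 (9.09%) lower than in ESC. The fit of all genes, which leaves these probe sets out, had shares of 9.07% and 11.7%, 18.8% and 25.2%, and 19.3% and 25.6%. No share over all probe sets is given, so whether these counts are few or many was not tested. The medians of the 110 probe sets in the 3 comparisons were -0.03, 0.03 and -0.01.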

How the data were processed

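Total RNA of 8 mouse samples was measured on Affymetrix arrays of 1 colour. The deposited values are log2 values that the authors made with RMA, per the submitters' processing notes, in Bioconductor, per the labels. Neither a version nor the set of arrays normalized jointly is given in the sources used here. The table holds 45101 probe sets, of which the platform annotation gives 1 symbol to 34958, several to 932 and none to 9211. Each of 18194 genes was represented by its single-symbol probe set with the highest mean, and names were checked against RefSeq GRCm38.p6 (34754 probe sets matched, 0 symbols updated). The number of arrays limits the precision.

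Groups were compared with limma 3.58.1 in R 4.3.3 in 1 fit of all 8 arrays with group as the only term (5 residual and 8.07 prior degrees of freedom), two-sided, with Benjamini-Hochberg adjustment over all 18194 genes, called below 0.05. The test was tested on simulated data. Named genes were taken from the 6 largest called rises and falls of each set whose arrays do not overlap. Others were fixed members, including the diverged relatives, or among the 3 members of each set with the narrowest range. Up to 4 called genes in each direction were taken from the other lists. Not every gene that these rules give is named. The members and lists were chosen with earlier results of these data known. Alternatives changed the normalization (quantile or cyclic loess), the probe sets (no dim ones, no _x_at or _s_at ones, or the mean per gene), the fit (only the groups compared, a trended robust prior, weights per array, or a block for the replicate number), the arrays (each left out), the threshold (2-fold) and the membership (wider or narrower). Motifs were searched in Python 3.11.15 with pandas 2.3.3, and figures drawn with Matplotlib 3.10.9.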

Additional observations from a re-analysis of the deposited data

How the results depend on the processing

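With 1 array left out in turn, PSC against ESC had 1119 to 1715 genes higher and 1330 to 2427 lower. The cytosolic set had 1 to 2 higher and 1 to 3 lower (median -0.06 to -0.01), and the mitochondrial set 1 to 3 and 10 to 22 (-0.26 to -0.16). EB_PSC against PSC had 2974 to 3546 and 3684 to 4824 genes. There the cytosolic set had 6 to 8 and 4 to 7 (0.0067 to 0.069), and the mitochondrial set 10 to 14 and 14 to 23 (-0.17 to -0.083). EB_PSC against ESC had 3042 to 3562 and 3881 to 4742 genes. There the cytosolic set had 3 to 9 and 3 to 10 (-0.01 to 0.01), and the mitochondrial set 4 to 12 and 26 to 37 (-0.39 to -0.31). Other settings that changed PSC against ESC were a repeated quantile normalization (cytosolic 2 higher and 1 lower, mitochondrial 6 higher, median -0.091) and cyclic loess (2 and 5 higher, medians 0.021 and -0.12). The mean of all probe sets gave 2 cytosolic genes higher and 8 lower (-0.069). It gave 1 mitochondrial gene higher, and removal of _x_at and _s_at probe sets also gave 1. A trended prior gave 5 cytosolic genes lower. Array weights gave 2537 genes, 3 cytosolic and 6 mitochondrial genes higher, and 4 cytosolic genes lower. Without the diverged relatives 0 cytosolic genes were lower (limma). In alternatives chosen after seeing the data, the 110 shared probe sets had 3 higher and 6 lower, without a background share over all probe sets. Members with a mean of 10 or more had 0 and 1 (-0.069). For EB_PSC against PSC, cyclic loess gave 4 cytosolic genes lower and medians of 0.16 and 0.0016, removal of _x_at and _s_at probe sets a mitochondrial median of -0.10, shared probe sets 11 higher, and members with a mean of 10 or more 4 higher. For EB_PSC against ESC, the quantile medians were 0.032 and -0.24, cyclic loess gave 13 and 4 cytosolic genes (0.18) and 18 and 21 mitochondrial genes (-0.090), and members with a mean of 10 or more had 3 higher. Cyclic loess also moved the median of all genes, from -0.095 to -0.0068 against PSC and from -0.073 to -0.0069 against ESC. At a 2-fold threshold PSC against ESC had 268 and 282 genes, 0 and 1 cytosolic and 0 and 0 mitochondrial (limma, adjusted p below 0.05). EB_PSC against PSC then had 1557 and 1350 genes, 1 and 2 cytosolic and 2 and 6 mitochondrial, and EB_PSC against ESC 1602 and 1680, 0 and 2, and 0 and 7. Without _x_at and _s_at probe sets, Mrpl28 (-0.090) and Mrpl38 (0.095) turned sign between PSC and ESC, as did Rpl41 in EB_PSC against PSC (-0.37) and ESC (-0.63). Mrpl15 then differed by -0.49 between PSC and ESC, and by -0.43 with the mean of its probe sets. The causes were not tested. Same-numbered PSC and ESC arrays did not deviate together (correlations of -0.28, -0.13 and -0.10), while EB_PSC and ESC arrays had 0.15 and 0.23 and EB_PSC and PSC arrays -0.14 and 0.04. The numbers were not taken to pair the samples. With the replicate number as a block, 2 cytosolic genes were higher in PSC than in ESC and 3 in EB_PSC than in ESC. Dim signals, signals near the top of the scale and shared probe sets limit the cytosolic set.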
